A study of Mus musculus with 15 samples.

Results

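Type I interferon response genes were followed in bone marrow myeloid progenitors of mice with mutant Cebpa, which encodes the transcription factor C/EBPα. The members are 41 genes listed as interferon-induced, and each was taken from the probe set that carries its symbol alone, with the highest mean over the 15 arrays where there was more than 1. Of these, 38 were measured among the 19937 genes tested. Gbp2 and Isg15 lie on probe sets shared with another gene, and Ifi44 has no probe set named here, so these 3 are given no value. The members cover 4 transducers and transcription factors, 6 nucleic acid sensors, 15 measured antiviral effectors, 6 measured genes of ubiquitin, ISG15 and ADP-ribosylation pathways, 3 of antigen processing and 4 others.

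Type I interferons are secreted cytokines that bind the receptor IFNAR on almost every nucleated cell. The receptor's kinases activate transcription factors, a complex with STAT2 and IRF9 among them, that bind interferon-stimulated response elements in the promoters of the induced genes. In the marrow, interferon drives blood stem and progenitor cells towards division, and a low tonic level of signalling keeps many of these genes on in unchallenged mice.

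Levels were measured on Affymetrix Mouse Gene 1.0 ST arrays, which give log2 values, in cells of 12 female C57BL/6 mice sorted 3 weeks after conditional knockout. PreGMs (pre-granulocyte-macrophage progenitors) were sorted as Lin- Sca1- cKit+ cells without CD150, CD41, FcgRII and Endoglin, and GMPs (granulocyte-macrophage progenitors), the next stage, carried FcgRII. There were 3 arrays in each of 5 groups, namely preGMs of the genotypes +/+ and fl/p30 and GMPs of the genotypes fl/+, fl/BRM2 and fl/p30, where the symbols give the 2 Cebpa alleles. The fl allele is removed by Cre, p30 makes only the short C/EBPα isoform, and BRM2 is a mutant of the basic region. Every group carries the Mx1-Cre transgene per its label, spelled Mx1Ce for preGM +/+, so by label mutants and controls do not differ in the transgene. Mutants and their controls were different animals, and differences between them other than the Cebpa alleles were not tested. The Mx1 promoter that drives Cre is itself switched on by interferon. The sources used here give neither the agent that induced Cre nor the ages of the mice. The controls of the stages differ in genotype, +/+ for preGMs and fl/+ for GMPs. The same 3 fl/p30 animals gave preGMs and GMPs, and each has the same replicate number in both groups.

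Markers of the sort were read on each array. Kit lay between 9.53 and 10.55 on all arrays and Mpo between 12.44 and 13.12, while Fcgr3 lay between 6.12 and 7.18 in preGMs and between 9.01 and 9.70 in GMPs. Fcgr2b, which encodes FcgRII itself, overlapped between the stages, at 6.44 to 7.45 in preGMs and 7.0 to 9.0 in GMPs. Elane, a gene of granule-forming progenitors, lay between 5.36 and 5.61 in preGM fl/p30, below the array medians, and between 6.47 and 11.72 on the other arrays. Array medians lay between 6.03 and 6.23, and values near or below them are treated here as dim. The means of Ifit1, Ifit3, Mx1, Mx2 and Cmpk2 over the 15 arrays were below 6.03. Of the plasmacytoid dendritic cell list, a source of interferon in marrow, 8 of 9 genes were measured, and their mean ran from 5.94 to 6.26 over the arrays. Ccr9, Pacsin1, Cd209d and Spib were below every array median, and Siglech lay between 5.41 and 6.05. The others were brighter, Tcf4 at 7.61 to 9.78, Cox6a2 at 6.69 to 7.79 and Ly6d at 6.20 to 7.10. Of this list 1 gene was called lower in GMP fl/+ than in preGM +/+, and 0 in any comparison of a mutant with its control. Such lists are means over bulk RNA, in which fewer cells of a type and less RNA per cell cannot be told apart.

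Promoters were searched for the element through which interferon-induced genes are known to respond. RefSeq promoters (build GRCm38.p6) were found for 32 of the 41 members, and the 250 bases before each start were searched on both strands for the core of the interferon-stimulated response element (ISRE), which is GAAA, any 2 bases and GAAA again. It was present in 10 of 32 members, 31.2%, against 3.46% of 27025 genes with a promoter in the table. These were Stat2, Ifit1, Ifit3, Oas3, Gbp2, Gbp3, Rsad2, Bst2, Isg15 and Trim30a. The shorter GAS core TTCNNNGAA, which STAT dimers bind, was in 6 of 32 members, 18.8%, against 8.13% of genes. The ISRE core was in 4 of 14 members that passed a test in any comparison and in 4 of 15 that passed none. A match is a stretch of letters, not a tested site. The 4 members that hold the core and passed a test are printed 5′ to 3′ in the sense of the gene, from 20 bases before the first match to the base before the start, with the core in capitals (all 4 carry it as its reverse complement).
Rsad2, chr12:26456453-26456592, minus strand: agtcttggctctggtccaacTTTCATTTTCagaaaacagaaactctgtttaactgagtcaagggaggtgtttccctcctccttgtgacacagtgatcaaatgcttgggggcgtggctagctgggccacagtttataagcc
Trim30a, chr7:104465194-104465249, minus strand: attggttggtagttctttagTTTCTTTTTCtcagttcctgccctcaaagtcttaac
Gbp3, chr3:142559979-142560043, plus strand: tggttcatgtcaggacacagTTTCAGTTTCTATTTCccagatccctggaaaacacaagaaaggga
Ifit3, chr19:34583353-34583528, plus strand: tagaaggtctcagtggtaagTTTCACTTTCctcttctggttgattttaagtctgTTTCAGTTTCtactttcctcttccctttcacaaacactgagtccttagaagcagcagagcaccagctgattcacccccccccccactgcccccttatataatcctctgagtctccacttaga
Rsad2 and Trim30a hold 1 match each, and Gbp3 and Ifit3 hold 2, which overlap in Gbp3.

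As a set, the members stood lowest in GMP fl/+ and highest in preGM fl/p30. The level of an array was taken as the median over the 38 members of each gene's log2 deviation from its own mean over the 15 arrays. For preGM +/+ it was 0.15, -0.095 and 0.072, and for preGM fl/p30 it was 0.18, 0.58 and 0.21. The GMP fl/+ arrays had -0.28, -0.65 and -0.34, those of GMP fl/BRM2 had -0.24, 0.20 and -0.17, and those of GMP fl/p30 had -0.087, 0.20 and 0.033. All 3 GMP fl/+ arrays lay below all 12 others, and replicate 2 was the lowest. With arrays centred on their medians replicate 1 of GMP fl/+ was at -0.19, above GMP fl/BRM2 replicate 1 at -0.27, and the groups then overlapped. By group mean, 24 of 38 members were highest in preGM fl/p30 and 26 were lowest in GMP fl/+. In the heat map of the members the exceptions are plain. Gbp3 ran high in both control groups, and Adar stayed within 0.06 between group means.

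**Figure D1:**
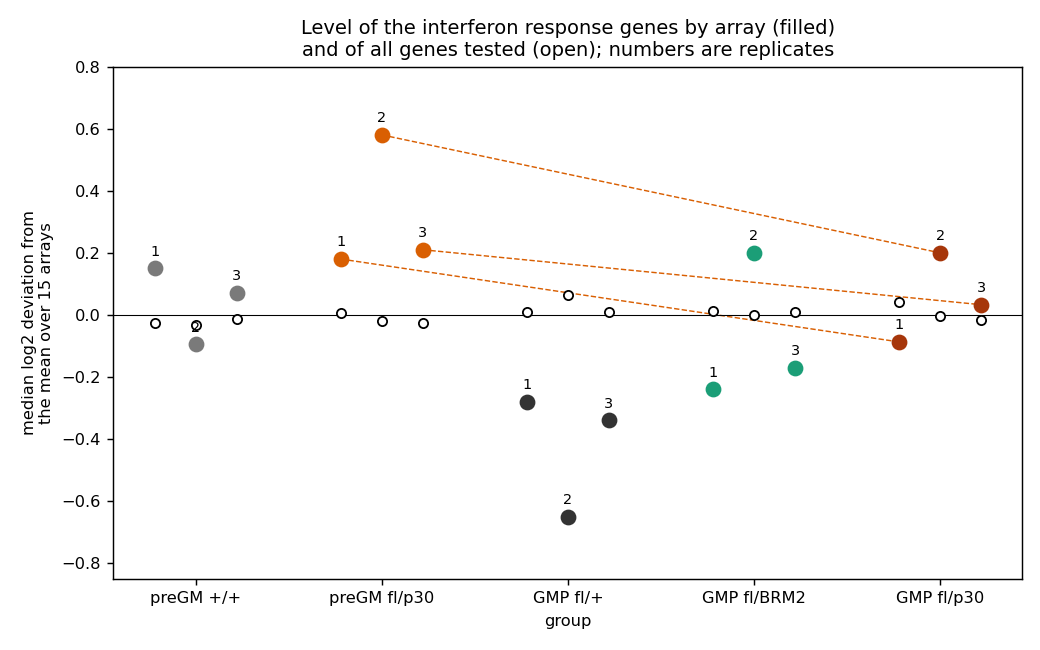
Median log2 deviation of the 38 interferon response genes (filled points) and of all 19937 genes (open points) on each of the 15 arrays, by group, with replicate numbers. Dashed lines join the preGM and GMP arrays of one fl/p30 animal, and the 3 GMP fl/+ arrays, at -0.28, -0.65 and -0.34, lie below the others on this scale, which is not centred by array.

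**Figure D2:**
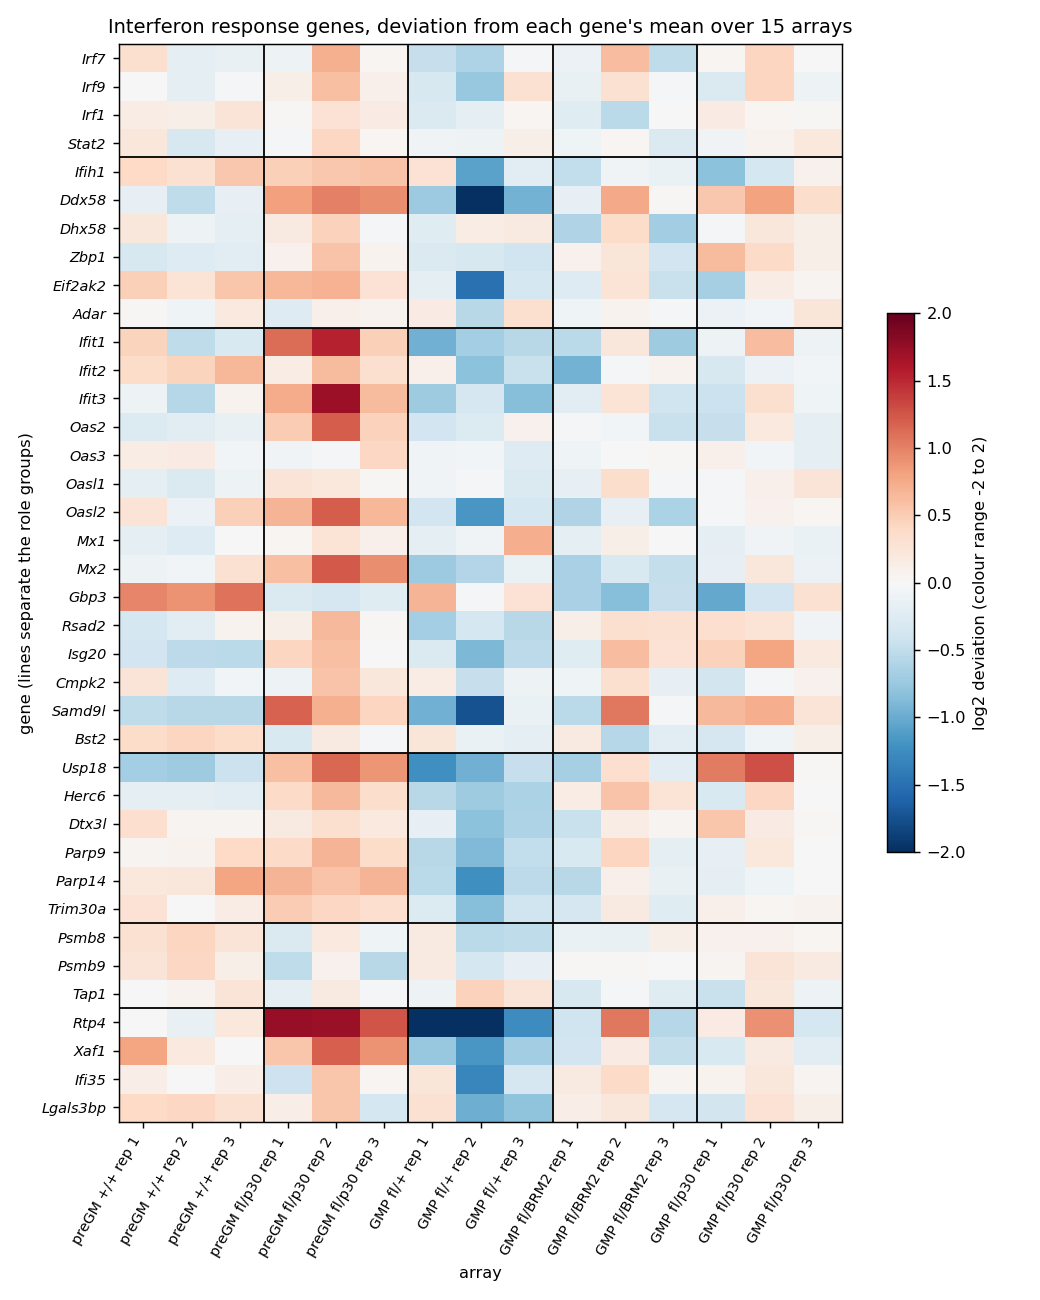
Log2 deviation of each member (vertical axis, grouped by role) from its mean over the 15 arrays (horizontal axis), with colours limited to -2 to 2. Blue columns in GMP fl/+ and red columns in preGM fl/p30 run through most genes, while Gbp3 is red in preGM +/+.

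Single arrays stood out within groups for many members. Outside fl/p30 each animal gave 1 array, so animal and array cannot be told apart there. In preGM fl/p30, replicate 2 was the highest of the group's arrays for 30 of 38 members, 78.9%, against 31.6% of all genes. The GMPs of the same animal were highest of their group for 22 members, 57.9% against 25.1%. For 20 members, 52.6% against 10.8%, it was highest at both stages. GMP fl/BRM2 replicate 2 was the highest of its group for 31 members, 81.6% against 30.8%, and GMP fl/+ replicate 2 the lowest of its group for 24, 63.2% against 30%. The median SD of the members within groups was 0.304 in GMP fl/+ and 0.148 in preGM +/+, against 0.195 and 0.115 over all genes. Elane was lowest of its group in GMP fl/BRM2 replicate 2, at 7.35 against 10.59 and 9.56, where the member level was the highest of the group. It was also lowest in GMP fl/p30 replicate 1, at 6.47 against 8.99 and 10.85, where the member level was the lowest of the group, and its part in either was not tested.

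GMPs with the p30 allele were compared with GMP fl/+ to ask what the short isoform alone does at this stage. Of the 38 members, 11 rose and 0 fell at an adjusted p under 0.05 in limma, where 4.69% of all genes rose and 1.37% fell. The largest rises were those of Rtp4, Ddx58, Usp18, Samd9l and Isg20. The median log2 difference of the members was 0.51, against -0.04 over all genes, and 33 members, 86.8%, were above 0 against 41.9% of genes. An unadjusted p under 0.05 was found for 17 members, and for 20% of all genes. All 3 mutant arrays exceeded all 3 control arrays for 17 members, where 9.16% of all genes did so, and none was lower without overlap, where 8.27% of genes were. In this and the next comparison the members share the same GMP fl/+ arrays, so the values are given side by side.

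The 4 members that are transducers or transcription factors gave 0 calls in any of the 7 comparisons, and Irf1 had an unadjusted p under 0.05 in 2 of these. Irf7, which amplifies the response once induced and spans the widest range of group means of the 4, measured 5.86, 5.69 and 6.28 in GMP fl/+. It was 6.19, 6.93 and 5.81 in GMP fl/BRM2 and 6.36, 6.74 and 6.33 in GMP fl/p30. The fl/p30 arrays lay above the fl/+ arrays by a mean of 0.54 ± 0.27 (SE), which did not pass (limma adjusted p = 0.295). Its preGM values were 6.63, 6.14 and 6.17 in +/+ and 6.21, 7.02 and 6.36 in fl/p30, and the groups overlapped. Stat2 and Irf9, of the complex that binds the element, and Irf1 stayed within 0.53 between group means.

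Ddx58, which encodes the viral RNA sensor RIG-I, and Zbp1, a sensor of Z-form nucleic acid, rose in GMP fl/p30. Ddx58 measured 7.48, 5.65 and 7.26 in GMP fl/+ and 8.74, 9.01 and 8.56 in GMP fl/p30. The groups did not overlap, and replicate 2 of the control was far below its group. The difference was 1.97 ± 0.36 (limma adjusted p = 0.00491). In GMP fl/BRM2 Ddx58 was 8.04, 8.97 and 8.23, again above all controls, and rose by 1.62 ± 0.36 (limma adjusted p = 0.0297). Zbp1 was 6.22, 6.19 and 6.12 in GMP fl/+ and 7.15, 6.90 and 6.64 in GMP fl/p30, a rise of 0.71 ± 0.17 from a dim level (limma adjusted p = 0.0263). Its fl/BRM2 values of 6.60, 6.75 and 6.13 overlapped the controls. The related sensors Ifih1 and Dhx58, and the editing enzyme Adar, differed by at most 0.071 from 0 in GMP fl/p30.

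Of the antiviral effectors, Rsad2, Isg20 and Samd9l rose in GMP fl/p30. Rsad2, which makes a chain-terminating nucleotide that stalls viral polymerases, was 6.04, 6.38 and 6.17 in GMP fl/+, 6.85, 7.05 and 7.03 for fl/BRM2 and 7.07, 7.0 and 6.65 for fl/p30. Neither mutant group overlapped the control, and the rises were 0.78 ± 0.17 in fl/BRM2 and 0.71 ± 0.17 in fl/p30 (limma adjusted p = 0.0283 and 0.026). Isg20, an exonuclease that degrades single-stranded RNA, was 7.61, 7.01 and 7.38 in GMP fl/+ and 8.37, 8.70 and 8.10 in fl/p30, a rise of 1.06 ± 0.23 (limma adjusted p = 0.0125). In fl/BRM2 it was 7.66, 8.53 and 8.20, all above the controls, with a difference of 0.80 ± 0.23 that did not pass (limma adjusted p = 0.0813). Samd9l, a restriction factor whose human counterpart is lost or mutated in some myeloid malignancies, was 8.25, 7.48 and 9.09 in GMP fl/+. It was 9.87, 9.95 and 9.47 in fl/p30, above all controls by 1.49 ± 0.38 (limma adjusted p = 0.0348), and 8.68, 10.27 and 9.18 in fl/BRM2, which overlapped the control.

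Gbp3, a guanylate-binding GTPase that attacks the vacuoles of intracellular microbes, went the other way. It measured 8.34, 7.62 and 7.95 in GMP fl/+, 7.01, 6.81 and 7.20 for fl/BRM2 and 6.64, 7.27 and 7.96 for fl/p30. All fl/BRM2 arrays lay below the controls while the fl/p30 arrays overlapped them, and the differences of -0.97 ± 0.25 and -0.68 ± 0.25 did not pass (limma adjusted p = 0.0591 and 0.136). Its promoter holds the core printed above.

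Usp18, Herc6, Dtx3l, Parp9 and Trim30a, 5 of the 6 measured genes of ubiquitin-like and ADP-ribosyl modification, rose in GMP fl/p30. Usp18 strips ISG15 from proteins and blocks signalling at the receptor. It measured 6.12, 6.39 and 6.88 in GMP fl/+, 6.68, 7.68 and 7.14 for fl/BRM2 and 8.38, 8.63 and 7.37 for fl/p30. The fl/p30 arrays were above all controls, by 1.66 ± 0.31 (limma adjusted p = 0.00503), and the fl/BRM2 arrays overlapped the controls. Herc6 is the main ligase that attaches ISG15 in the mouse. Its values were 7.57, 7.41 and 7.49 in GMP fl/+, 8.27, 8.70 and 8.39 for fl/BRM2 and 7.81, 8.54 and 8.13 for fl/p30. Neither mutant group overlapped the control, with rises of 0.97 ± 0.16 and 0.68 ± 0.16 (limma adjusted p = 0.00534 and 0.0246).

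Dtx3l, a ubiquitin ligase, and Parp9, its ADP-ribosyltransferase partner, are neighbours on chromosome 16 with Parp14 beside them. Dtx3l was 8.29, 7.64 and 7.85 in GMP fl/+, 8.01, 8.61 and 8.51 for fl/BRM2 and 9.01, 8.62 and 8.48 for fl/p30, and the last group lay above the controls by 0.78 ± 0.19 (limma adjusted p = 0.0264). Parp9 was 7.22, 6.88 and 7.27 in GMP fl/+, 7.46, 8.20 and 7.58 for fl/BRM2 and 7.60, 7.98 and 7.77 for fl/p30. Both mutant groups lay above the controls, and the fl/p30 rise of 0.66 ± 0.19 was called at the threshold itself (limma adjusted p = 0.05 after rounding). Parp14 was 7.39, 6.70 and 7.41 in GMP fl/+, 7.38, 8.03 and 7.79 for fl/BRM2 and 7.74, 7.85 and 7.93 for fl/p30. The last group lay above the controls by 0.67 ± 0.21, which did not pass (limma adjusted p = 0.0706). Trim30a, which restrains NF-kappaB signalling, was 10.24, 9.66 and 10.11 in GMP fl/+, 10.18, 10.69 and 10.27 for fl/BRM2 and 10.62, 10.56 and 10.59 for fl/p30, where it rose by 0.59 ± 0.16 (limma adjusted p = 0.0402).

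Rtp4, an interferon-induced chaperone of receptors that binds RNA, spanned the widest range of all members, 3.43 between group means. It measured 6.19, 6.15 and 7.08 in GMP fl/+, 7.94, 9.39 and 7.76 for fl/BRM2 and 8.49, 9.24 and 7.98 for fl/p30. Neither mutant group overlapped the control, and the rises were 1.89 ± 0.39 and 2.09 ± 0.39 on the log2 scale (limma adjusted p = 0.0198 and 0.00559). With 2 of the 3 control arrays near the array medians, no fold is given. Xaf1, an interferon-induced promoter of cell death, was 6.54, 6.13 and 6.61 in GMP fl/+, 6.92, 7.46 and 6.82 for fl/BRM2 and 7.0, 7.48 and 7.09 for fl/p30. Both mutant groups lay above the control, by 0.64 ± 0.23 and 0.76 ± 0.23, which did not pass (limma adjusted p = 0.199 and 0.0725). Psmb8, an immunoproteasome subunit, was 10.66, 9.94 and 9.97 in GMP fl/+, 10.34, 10.33 and 10.60 for fl/BRM2 and 10.56, 10.56 and 10.52 for fl/p30, and neither mutant group stood apart.

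**Figure D3:**
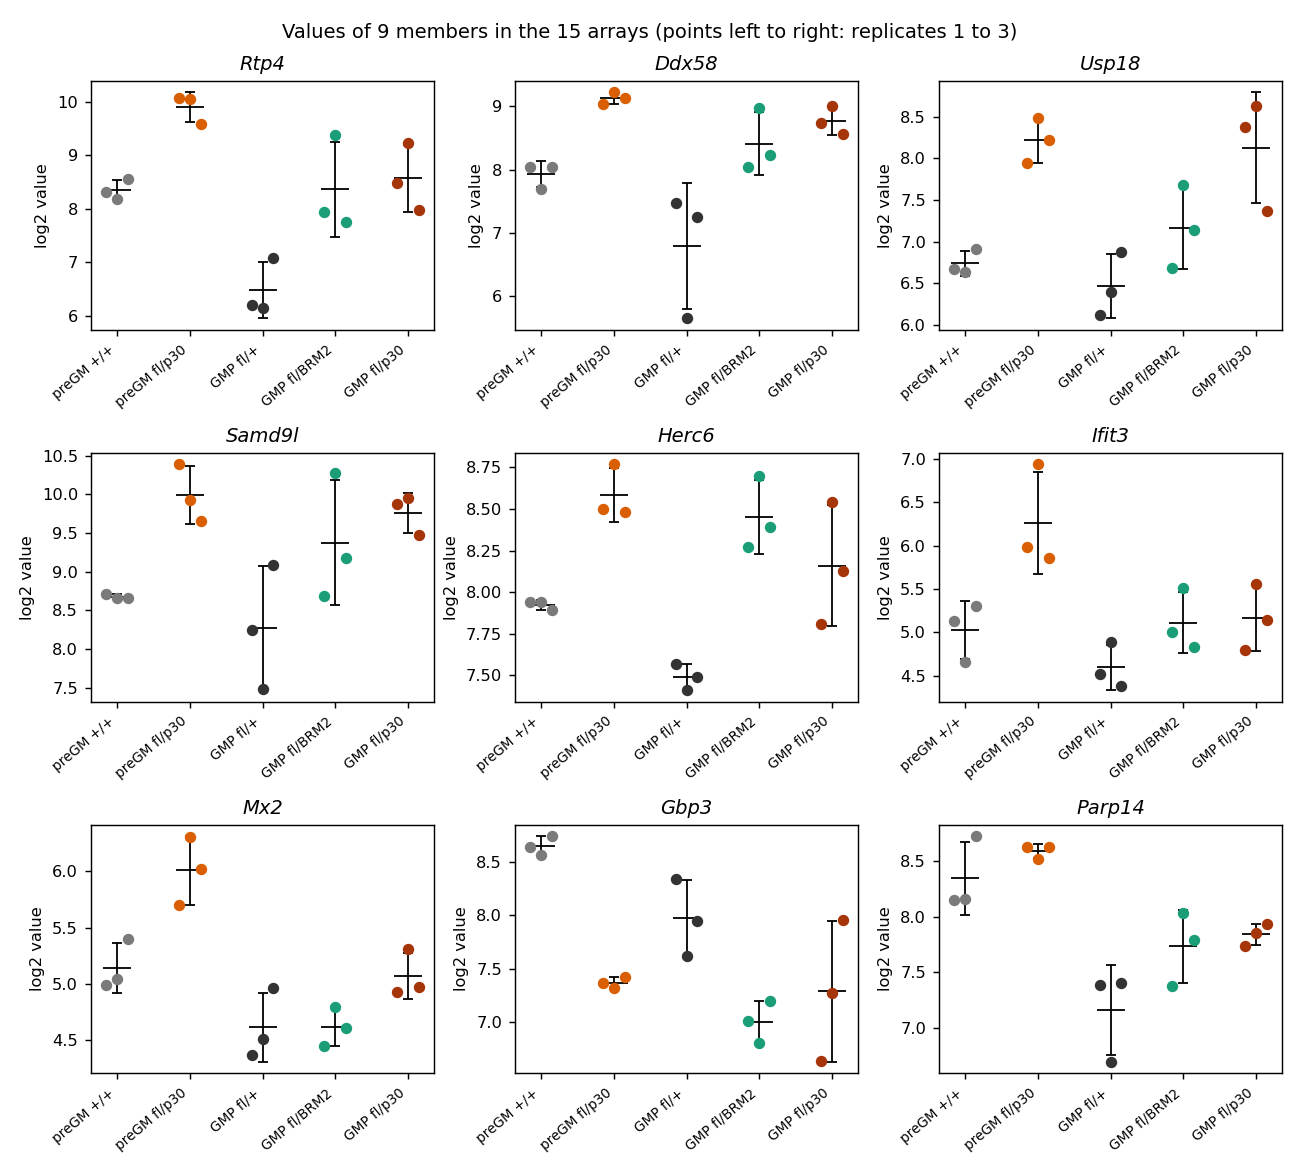
Log2 values of 9 members on the 15 arrays, by group, with points from left to right for replicates 1 to 3 and bars for the mean and SD of 3 arrays. Rtp4, Ddx58, Usp18 and Samd9l are low in GMP fl/+ and high in the fl/p30 groups, and Gbp3 is highest in preGM +/+.

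The calls in GMP fl/p30 depended on single arrays. Only those of Ddx58, Usp18 and Rtp4 remained in each of the 6 fits that left out 1 array of the comparison. The count fell from 11 to 4 without GMP fl/+ replicate 2, to 5 without replicate 3 of GMP fl/+ or replicate 1 of GMP fl/p30, and to 3 without GMP fl/p30 replicate 2, and the median difference fell to 0.27 without GMP fl/+ replicate 2. Calls over all 19937 genes fell in these fits too, from 935 higher and 274 lower. In the same order they were 576 and 126, 628 and 115, 474 and 63, and 498 and 102. Fitted by limma on the 6 arrays of the comparison alone, 0 members passed and 18 had an unadjusted p under 0.05, against 17 in the fit of all arrays. Over all genes 158 were then higher and 14 lower. Markers of other cells moved with the same groups, and their part in these results was not tested. Of the erythroid list 6 of 8 were measured, and none was below the medians on every array. Their mean was 6.55 to 6.89 in GMP fl/+, 7.64 to 8.63 in fl/BRM2 and 7.78 to 8.38 in fl/p30, and 4 rose in each mutant. All 9 T and NK genes were measured, with Cd3g, Cd3d, Klrd1, Gzma and Klrb1c below the array medians. Their mean was 5.84 to 6.02 in GMP fl/+, 6.10 to 6.29 for fl/BRM2 and 6.63 to 6.76 for fl/p30, and 4 rose in fl/p30 and 1 in fl/BRM2. The 7 mast and basophil genes were all measured, and none was below the medians on every array. Cma1 was dim in GMP fl/+, at 5.13, 4.60 and 5.19. The mean of the list was 7.36 to 7.97 in GMP fl/+, 8.39 to 8.79 for fl/BRM2 and 8.09 to 8.64 for fl/p30. In fl/p30 3 of these genes rose and 2 fell. The 8 neutrophil genes, with Mmp9 and Retnlg below the medians, had means of 6.36 to 7.01 in GMP fl/+ and 5.71 to 6.35 in GMP fl/p30, where 2 fell.

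GMPs with the BRM2 allele were compared with the same GMP fl/+ arrays. Here 4 members rose, Ddx58, Rsad2, Herc6 and Rtp4, and 0 fell, where 1.89% of all genes rose and 0.642% fell, 2.53% in either direction. All 4 are also among the 11 of fl/p30. The median difference was 0.31, against -0.02 over all genes, 31 of 38 members were above 0 against 45.5% of all genes, and 15 had an unadjusted p under 0.05 against 15% of all genes. Arrays did not overlap for 7 members that were higher, where 6.74% of all genes were, and for 1 that was lower, Gbp3, where 8.51% were. Herc6 was the only one called in every leave-out of a single array. Without fl/BRM2 replicate 2 it alone passed, where 114 of all genes rose and 20 fell. Without fl/BRM2 replicate 3, 2 members passed, where 165 of all genes rose and 46 fell, and 9 members passed without GMP fl/+ replicate 1. In the last of these fits 1524 of 19937 genes rose and 694 fell, against 377 and 128 in the fit of all arrays.

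The mutants were then set against each other. No member passed (0 of 38 in limma, where 0.00502% of all genes were higher in fl/p30), and 5 had an unadjusted p under 0.05, as 3.45% of all genes did. These were Irf1, Zbp1, Oasl2, Mx2 and Usp18, all higher in fl/p30. The median difference of the members was 0.13, against -0.0071 over all genes. The largest difference was that of Usp18, 0.96 ± 0.31, with a 95% interval of 0.31 to 1.61, whose arrays overlapped. For Ddx58 the interval ran from -0.42 to 1.13 and for Rtp4 from -0.64 to 1.04, so differences of more than 2-fold between the mutants lie within them. Arrays did not overlap for 4 members, Irf1, Oasl2, Mx2 and Psmb9, all higher in fl/p30, where 4.67% of all genes were and 3.66% were lower. A second, dimmer probe set of Irf1 differed less, with means of 7.06 (SD 0.24) in fl/p30 and 6.93 (SD 0.17) in fl/BRM2.

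In preGMs the p30 allele was compared with +/+, a control that is normal at both alleles. Of the 38 members, 4 rose (Ifit3, Oas2, Mx2 and Usp18) and 1, Gbp3, fell, where 0.647% of all genes rose and 1.03% fell, 1.68% in either direction. The median difference was 0.26 against 0.025 over all genes, 28 members were above 0 against 55.2% of all genes, and 19 had an unadjusted p under 0.05 against 14% of all genes. For 16 members the fl/p30 arrays lay above all +/+ arrays, where 12.4% of all genes did, and for Gbp3, Bst2, Psmb8 and Psmb9 they lay below, where 12.8% did.

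Usp18 was 6.67, 6.64 and 6.91 in preGM +/+ and 7.95, 8.49 and 8.22 in preGM fl/p30, a rise of 1.48 ± 0.31 or 2.79-fold (limma adjusted p = 0.0263). It was the only member called in fl/p30 at both stages. Oas2, which makes the messenger that activates RNase L, was 6.13, 6.17 and 6.25 in +/+ and 6.91, 7.61 and 6.86 in fl/p30, a rise of 0.94 ± 0.21 (limma adjusted p = 0.0347). Its GMP values were 6.02, 6.13 and 6.49 in fl/+, 6.37, 6.34 and 5.96 for fl/BRM2 and 5.94, 6.59 and 6.22 for fl/p30, with no group apart.

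Ifit3, which strengthens the binding of viral RNA by its IFIT partners, was 5.13, 4.66 and 5.30 in preGM +/+ and 5.98, 6.94 and 5.86 in preGM fl/p30, a difference of 1.23 ± 0.28 (limma adjusted p = 0.0445). Its GMP values were 4.52, 4.89 and 4.38 in fl/+, 5.0, 5.51 and 4.83 for fl/BRM2 and 4.80, 5.56 and 5.14 for fl/p30. Mx2, a dynamin-like antiviral GTPase, was 4.99, 5.04 and 5.40 in preGM +/+ and 5.70, 6.31 and 6.02 in preGM fl/p30, a difference of 0.87 ± 0.19 (limma adjusted p = 0.0325). Its GMP values were 4.37, 4.51 and 4.96 for fl/+, 4.45, 4.79 and 4.61 for fl/BRM2 and 4.93, 5.31 and 4.97 for fl/p30. Both genes were near or below the array medians in every group, apart from Ifit3 on preGM fl/p30 replicate 2, and no fold is given for them. Mx1, whose promoter drives the Cre transgene, lay between 5.07 and 6.06 on all arrays and passed no test.

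Gbp3 was 8.64, 8.56 and 8.74 in preGM +/+ and 7.37, 7.32 and 7.42 in preGM fl/p30, a fall of 1.28 ± 0.25 on the log2 scale (limma adjusted p = 0.0208), and within each group the arrays lay close together. Other members stood clear of their controls and did not pass. Rtp4 was 8.32, 8.19 and 8.55 in +/+ and 10.07, 10.06 and 9.59 in fl/p30 (difference 1.55 ± 0.39, limma adjusted p = 0.0683). Ddx58 was 8.05, 7.70 and 8.04 in +/+ and 9.03, 9.22 and 9.13 in fl/p30 (1.19 ± 0.36, limma adjusted p = 0.139). Samd9l was 8.71, 8.66 and 8.66 in +/+ and 10.39, 9.93 and 9.65 in fl/p30 (1.31 ± 0.38, limma adjusted p = 0.123). Herc6 was 7.94, 7.94 and 7.89 in +/+ and 8.50, 8.77 and 8.48 in fl/p30 (0.66 ± 0.16, limma adjusted p = 0.0583).

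These calls moved with the fit. With only the 6 preGM arrays 11 members passed, 10 higher and 1 lower, where 393 of 19937 genes were higher and 677 lower. The fit of all arrays had 129 genes higher and 205 lower. Leaving out preGM arrays one at a time gave 0 to 1 members, with 0 without +/+ replicate 1, +/+ replicate 2 or fl/p30 replicate 3. Over all genes, in that order, 48 were higher and 84 lower, 36 and 65, and 55 and 80. Without +/+ replicate 3 or fl/p30 replicate 1 only Mx2 passed, where 47 of all genes were higher and 89 lower, and 47 and 81. Without fl/p30 replicate 2 only Psmb9, lower, passed, where 69 of all genes were higher and 154 lower. With arrays centred on their medians 3 passed, where 80 of all genes were higher and 178 lower. With dim genes left out 3 passed, where 115 of 10829 genes were higher and 197 lower. Lists of other cells moved between these groups, and their part was not tested. All 8 neutrophil genes were measured, with Mmp9 and Retnlg below the array medians. Their mean was 6.63 to 7.57 in +/+ and 5.42 to 5.47 in fl/p30, and 4 fell. The monocyte and macrophage mean, of 9 of 10 genes, was 6.95 to 7.12 in +/+ and 6.31 to 6.61 in fl/p30, and 1 fell. Other lists were higher in fl/p30. The T and NK mean was 6.0 to 6.17 in +/+ and 6.47 to 6.51 in fl/p30, and 2 rose. For mast and basophil genes it was 7.11 to 7.36 and 7.47 to 7.80, and 1 rose. For erythroid genes it was 7.77 to 7.97 and 8.21 to 8.27, and 0 were called. The B lymphoid mean ran from 6.19 to 7.99 in preGM +/+ and from 6.53 to 6.83 in fl/p30, with 7 of 8 measured, Ms4a1 below the array medians and none called. Its highest value was that of +/+ replicate 3, where Ebf1 was 8.88, against 5.37 and 5.69 in replicates 1 and 2.

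**Figure D4:**
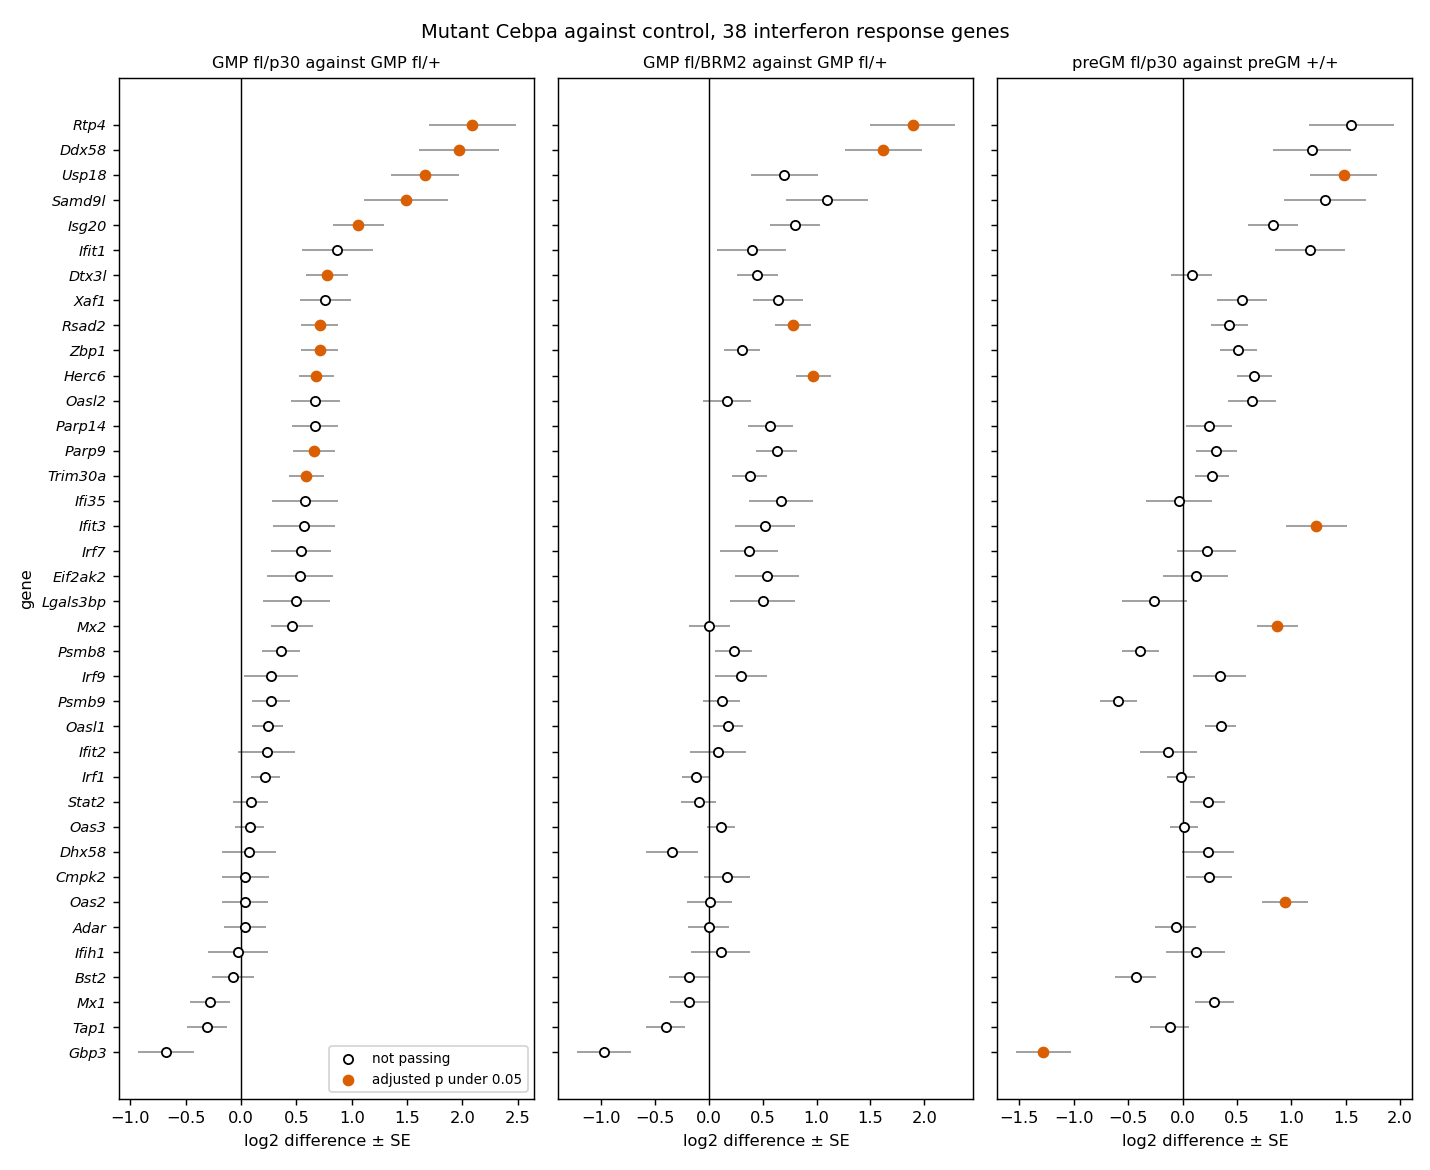
Log2 difference ± SE of each member in GMP fl/p30 and GMP fl/BRM2 against GMP fl/+, and in preGM fl/p30 against preGM +/+ (horizontal axes differ between panels), with filled points for an adjusted p under 0.05. There are 11, 4 and 5 filled points, and Gbp3 is the lowest gene in every panel.

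Whether the fl/p30 effect differed between stages was tested as the difference of the differences. No member passed (0 of 38, where 0.00502% of all genes were higher), and 5 had an unadjusted p under 0.05, where 13.1% of all genes did. The difference, as the GMP effect minus the preGM effect, was 0.70 ± 0.27 for Dtx3l, 0.75 ± 0.25 for Psmb8 and 0.86 ± 0.23 for Psmb9, and it was -0.90 ± 0.29 for Oas2 and -0.57 ± 0.26 for Mx1, none of which passed (limma adjusted p from 0.174 to 0.371). So the 10 members called in GMPs alone were not shown to differ between stages. Nor were Ifit3, Oas2, Mx2 and Gbp3, which were called in preGMs and not in GMPs. Without GMP fl/+ replicate 1, 3 members passed, namely Psmb8, Psmb9 and Lgals3bp, all higher. In that fit 1101 of 19937 genes were higher and 381 lower, against 1 and 0 in the fit of all arrays.

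Control GMPs were compared with control preGMs to see the course of the response in maturation. Of the 38 members 10 fell and 0 rose, where 6.02% of all genes fell and 4.19% rose, 10.2% in either direction. The median difference was -0.42 against 0.085 over all genes, 6 members were above 0 against 60.9% of all genes, and 19 had an unadjusted p under 0.05 against 31.7% of all genes. Arrays did not overlap for 19 members, all lower in GMPs, where 12.9% of all genes were lower and 21.1% higher. These groups differ in stage and in genotype, which cannot be told apart. The erythroid mean was 7.77 to 7.97 in preGM +/+ and 6.55 to 6.89 in GMP fl/+, and 4 of 6 measured genes fell. Of 7 stem and multipotent genes 6 were measured, Mecom, Procr and Slamf1 were below the array medians, the mean was 7.05 to 7.32 in preGM +/+ and 6.22 to 6.32 in GMP fl/+, and 3 fell. The part of both lists was not tested.

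Rtp4 fell by 1.88 ± 0.39 on the log2 scale (limma adjusted p = 0.011). Xaf1 was 8.09, 7.49 and 7.31 in preGM +/+, above all its GMP fl/+ values, and fell by 1.20 ± 0.23 (limma adjusted p = 0.00755). Parp14 was 8.15, 8.16 and 8.72 in preGM +/+, also above all its GMP fl/+ values, and fell by 1.18 ± 0.21 (limma adjusted p = 0.00416). These 3 calls remained when any single array was left out, and they were the ones that did so.

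The other 7 were lost in at least 1 leave-out. Eif2ak2, which encodes PKR, the kinase that halts translation on sensing double-stranded RNA, was 9.12, 8.92 and 9.21 in preGM +/+ and 8.45, 7.15 and 8.29 in GMP fl/+ (difference -1.12 ± 0.30, limma adjusted p = 0.0339). Oasl2, a relative of the OAS enzymes with ubiquitin-like domains, was 7.72, 7.33 and 7.92 in preGM +/+ and 7.06, 6.28 and 7.10 in GMP fl/+ (difference -0.84 ± 0.22, limma adjusted p = 0.0323). Ifit2, which blocks translation, was 7.68, 7.75 and 7.98 in preGM +/+ and 7.41, 6.49 and 6.87 in GMP fl/+ (difference -0.88 ± 0.26, limma adjusted p = 0.0432). In all 3 genes the groups were apart and GMP fl/+ replicate 2 was lowest.

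Dtx3l was 8.80, 8.51 and 8.51 in preGM +/+ and Parp9 was 7.82, 7.84 and 8.16, above their GMP fl/+ values, with differences of -0.68 ± 0.19 and -0.82 ± 0.19 (limma adjusted p = 0.0378 and 0.0163). Trim30a was 10.81, 10.51 and 10.67 in preGM +/+ and Psmb8 was 10.79, 10.91 and 10.73, with differences of -0.66 ± 0.16 and -0.62 ± 0.17 (limma adjusted p = 0.0204 and 0.0378). Without GMP fl/+ replicate 1 the count was 16, where 2001 of 19937 genes were higher and 2685 lower. The fit of all arrays had 836 genes higher and 1200 lower. Without GMP fl/+ replicate 2 or preGM +/+ replicate 3 the count of members was 3. Without preGM +/+ replicate 1 it was 4 and without preGM +/+ replicate 2 it was 6. The members fitted on these 6 arrays alone gave 4 calls.

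Within fl/p30, the same animals gave both stages. GMPs were lower than preGMs for 14 of 38 members without overlap of arrays, where 7.72% of all genes were lower so and 9.44% higher, and none was higher. Only Mx2 passed, lower by a difference of -0.94 ± 0.19 (limma adjusted p = 0.0379), where 0.286% of all genes fell and 0.356% rose. The median difference was -0.19 against 0.025 over all genes, and 14 members had an unadjusted p under 0.05, where 12.4% of all genes did. With the animals as fixed terms in a replicate block, 3 members fell, namely Mx2, Ifit3 and Oas2 (limma adjusted p = 0.0205, 0.0376 and 0.0174). With the animal as a random block 8 fell, namely Ifih1, Ifit3, Oas2, Oasl2, Mx2, Parp14, Rtp4 and Xaf1. Over all genes 89 rose and 83 fell with fixed terms, and 366 rose and 315 fell with the random block. Usp18, by contrast, differed by -0.097 ± 0.31 between the stages and Isg20 by 0.14 ± 0.23. In the unblocked fit Mx2 did not pass without preGM fl/p30 replicate 2 or 3, GMP fl/p30 replicate 1 or 3, preGM +/+ replicate 1 or 2, or GMP fl/BRM2 replicate 3.

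**Figure D5:**
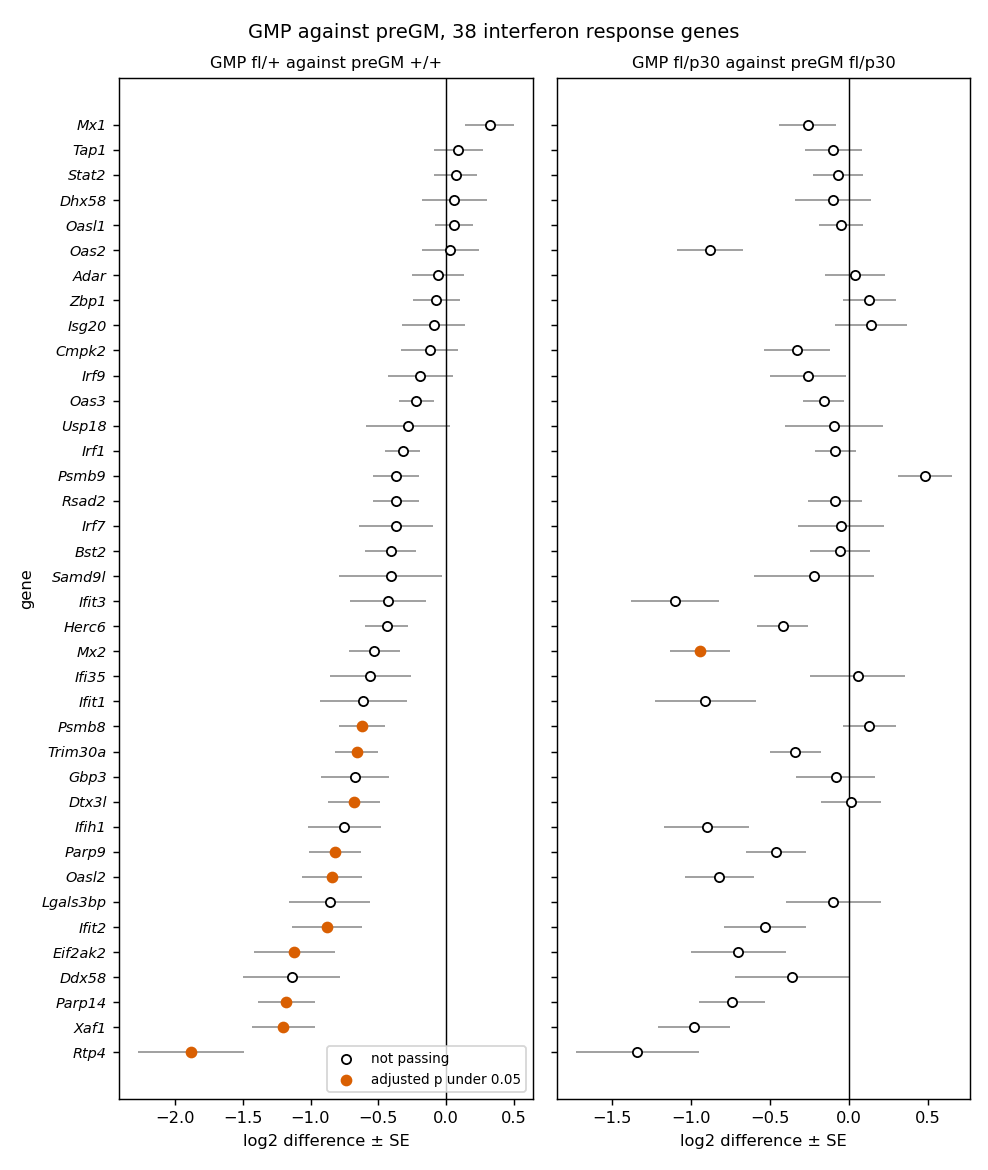
Log2 difference ± SE of each member between GMPs and preGMs, for the control groups (left) and for fl/p30 (right), ordered by the left panel, with filled points for an adjusted p under 0.05. Most points lie left of 0 in both panels, with 10 and 1 filled, and the horizontal axes differ.

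The interferons themselves gave no call in the mutants. Of 21 interferon genes 15 were measured, and 0 passed in limma in any of the 3 comparisons of a mutant with its control. Ifnb1, the first interferon that most cells make, lay between 3.81 and 4.46 on all arrays, below every array median. In control GMPs against control preGMs, 2 rose, Ifna5 by 0.40 ± 0.12 and Ifna16 by 0.60 ± 0.17 (limma adjusted p = 0.0484 and 0.0367), and Ifna16 was at 4.60 to 5.50 in these groups and so dim. The receptor genes passed no test: Ifnar1 lay between 7.71 and 8.49 and Ifnar2 between 9.83 and 10.86.

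Of the receptors and first transducers, 8 of 9 were measured. Jak1, the kinase bound to IFNAR2, was 10.53, 9.84 and 10.18 in GMP fl/+, 10.75, 11.11 and 11.08 for fl/BRM2 and 11.50, 11.50 and 10.99 for fl/p30. Jak2, which serves the interferon gamma receptor and many growth factor receptors, was 9.0, 8.42 and 8.91 in GMP fl/+, 9.35, 10.09 and 9.93 for fl/BRM2 and 10.53, 9.93 and 9.73 for fl/p30. For both kinases the mutant arrays lay above all controls. Jak1 rose by 1.15 ± 0.18 and Jak2 by 1.29 ± 0.22 in fl/p30 (limma adjusted p = 0.00176 and 0.00351), and by 0.80 ± 0.18 and 1.02 ± 0.22 in fl/BRM2 (limma adjusted p = 0.0308 and 0.028). Stat3 rose by 0.63 ± 0.13 in fl/p30 (limma adjusted p = 0.0113). Among 11 inhibitors, Irf2, which competes for the same promoter elements, rose by 0.78 ± 0.21 in GMP fl/p30 (limma adjusted p = 0.0463) and no other passed there.

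A further list of 60 interferon-induced genes had 47 measured. In GMP fl/p30, 8 rose and 1 fell, where 4.69% of all genes rose and 1.37% fell. Ifitm1, a membrane protein that hinders viral fusion, was 10.57, 8.79 and 10.37 in GMP fl/+, 12.66, 12.92 and 12.74 for fl/BRM2 and 12.93, 12.67 and 12.04 for fl/p30, with no overlap. It rose by 2.64 ± 0.36 in fl/p30 and 2.86 ± 0.36 in fl/BRM2 (limma adjusted p = 0.000652 and 0.000635). Slfn5 rose by 2.12 ± 0.30 and 1.63 ± 0.30 (limma adjusted p = 0.00077 and 0.00914), and these were the 2 that rose in fl/BRM2. Slfn8, Irgm1 and Gbp7 rose in fl/p30 by 1.20 ± 0.26, 1.10 ± 0.21 and 0.75 ± 0.21, and Ifitm6 fell by 1.04 ± 0.25 from a dim level (limma adjusted p from 0.00544 to 0.0484). In preGM fl/p30 the only call was a fall of Ifitm6, by 1.23 ± 0.25, where 0.647% of all genes rose and 1.03% fell. There the median difference of the 47 was 0.018 against 0.025 over all genes, and 26 were above 0 against 55.2% of all genes. In GMP fl/p30 their median was 0.29 against -0.04, and 33 were above 0 against 41.9%. Between the control stages 17 of the 47 fell and 0 rose, where 6.02% of all genes fell and 4.19% rose. Among them were Iigp1, Slfn5, Irgm1 and Epsti1, which fell by 1.56 ± 0.29, 1.29 ± 0.30, 1.16 ± 0.21 and 1.13 ± 0.20, and Iigp1 was dim in GMPs, at 5.78, 5.16 and 6.45 in preGM +/+ and 4.24, 4.31 and 4.16 in GMP fl/+. Ly6a, which encodes the Sca1 protein that the sort excluded and that interferon induces, was not measured here.

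MHC class I presentation, with 9 of 12 genes measured, gave 0 calls in each of the mutant comparisons with a control. Between the control stages 3 fell, H2-Q4, Tap2 and Erap1, by 0.59 ± 0.16, 0.50 ± 0.15 and 0.97 ± 0.28 on the log2 scale.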

How the data were processed

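The authors deposited log2 expression values per probe set, made with affy by RMA per the submitters' processing notes (background correction, quantile normalization and a summary over probes). The sources used here give no versions. RNA was amplified from 20 ng per the labels. The platform annotation gave 1 symbol to 21640 of 34760 probe sets, several to 1321 and none here to 11799; 19937 genes were tested. Symbols were checked by Entrez ID for 21553 probe sets in the RefSeq table, and 0 changed.

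A model with 5 group means over 15 arrays was fitted with limma 3.58.1 in R 4.3.3 (lmFit, eBayes without trend), with Benjamini-Hochberg adjustment over all genes in each of 7 comparisons and a call at an adjusted p under 0.05. Differences are log2 differences ± SE. Tested on simulated data for GMP fl/p30 against GMP fl/+ over 19937 genes, it recovered 77% of 100 genes changed by 1 log2 and 98% of 100 changed by 2, with 7 false calls. The simulated noise was independent between genes, with 1 SD per gene for all groups. In the data the median SD of the members was 0.304 in GMP fl/+ and 0.148 in preGM +/+. These rates therefore check the fit and do not give the recovery of the members here. Arrays have no read depth, so their number limits the precision.

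The members and lists were chosen with earlier results of these data known. Values by array were printed for each member called in any comparison and, in a role group with none, for the one with the widest range of group means. Up to 6 called genes of other lists were named by size. The pairing of the fl/p30 arrays comes from the labels' animal numbers, and the deviations of the same animal's arrays from their group means correlated at 0.334, 0.32 and 0.116. Alternatives changed the scaling, the probe sets, the filter, the arrays fitted, the weights, the moderation and the block, and left out each array in turn.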

Additional observations from a re-analysis of the deposited data

How the results depend on the processing

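No call of a member reversed in any of the 10 alternatives or the 15 fits without 1 array. Of 31 calls, 7 remained in every fit without an array of their own comparison and 4 remained in every setting, Herc6 in GMP fl/BRM2 and Parp14, Rtp4 and Xaf1 between the control stages. Fitted on the arrays of the comparison only, the calls were 0 in GMP fl/p30 (of 11), 1 in GMP fl/BRM2 (of 4), 11 in preGM fl/p30 (of 5), 0 between the fl/p30 stages (of 1) and 4 between the control stages (of 10). Over all genes, in the same order, 158 were higher and 14 lower, 102 and 29, 393 and 677, 13 and 16, and 243 and 503. With array weights the member calls were 20, 7, 11, 7 and 16, with 2 between the mutants and 4 for the difference between stages, where there were 0. Array weights raised the calls over all 19937 genes as well, to 2429 higher and 1634 lower in GMP fl/p30. They gave 1338 and 849 in GMP fl/BRM2 and 467 and 700 in preGM fl/p30. Between the fl/p30 stages there were 1197 and 751, and between the control stages 2183 and 2477. Between the mutants there were 211 and 72, and for the difference between stages 1326 and 665, each against 1 and 0 without weights. Centring arrays on their medians or leaving out dim genes gave 3 in preGM fl/p30, and leaving out dim genes gave 0 between the fl/p30 stages. Between the fl/p30 stages the replicate block by animal gave 3 calls with fixed terms and 8 as a random block. The replicate number as a block in all groups, where only the fl/p30 numbers mark shared animals, gave 5 calls between the control stages, and quantile normalization gave 6. Over all genes these fits gave 625 higher and 1024 lower, and 592 and 869. The block changed no other count by more than 1.5 times.

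Leaving out 1 array gave 3 to 16 calls in GMP fl/p30, with a median difference of 0.27 to 0.59, 1 to 9 in GMP fl/BRM2, 0 to 6 in preGM fl/p30, 0 to 1 between the fl/p30 stages, 3 to 16 between the control stages and 0 to 3 for the difference between stages. The highest counts in GMP fl/p30, in GMP fl/BRM2, between the control stages and for the difference between stages came without GMP fl/+ replicate 1. Calls over all genes also rose there, to 2152 higher and 926 lower in GMP fl/p30. Over all genes, quantile normalization gave 826 higher and 437 lower in GMP fl/p30 against 935 and 274, and centring gave 360 higher and 1243 lower between the control stages against 836 and 1200. The cause of these changes was not tested. With 3 arrays a group, dim genes such as Ifit3 and Mx2 have little signal over background.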

Other observations

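Of 14 measured genes of upstream sensing, which are not among the members, 12 did not pass in GMP fl/p30, 13 did not in GMP fl/BRM2 and 14 did not in preGM fl/p30. Ikbke, a kinase that activates the interferon regulatory factors, was 7.42, 8.67 and 8.13 in GMP fl/+, 6.74, 6.19 and 6.39 in GMP fl/BRM2 and 5.91, 6.32 and 7.03 in GMP fl/p30, with no overlap of either mutant and the control. Its differences were -1.63 ± 0.29 and -1.65 ± 0.29 (limma adjusted p = 0.00795 and 0.00374). In preGM +/+ it was 6.36, 6.48 and 6.47, and it was higher in control GMPs by 1.64 ± 0.29 (limma adjusted p = 0.00442). Ifngr2, a chain of the interferon gamma receptor, was 8.87, 8.83 and 8.93 in preGM +/+ and 7.04, 7.41 and 7.06 in preGM fl/p30, a difference of -1.71 ± 0.36 (limma adjusted p = 0.0311). Its GMP values were 9.0, 8.81 and 9.03 for fl/+, 8.26, 7.53 and 7.56 for fl/BRM2 and 6.64, 7.84 and 8.76 for fl/p30, below the control on every mutant array, and passed in neither. Tlr7, a sensor of single-stranded RNA, was lower in GMPs than in preGMs by -0.93 ± 0.13 in the controls and -0.88 ± 0.13 in fl/p30 (limma adjusted p = 0.0014 and 0.00829). It rose in GMP fl/p30 against fl/+ by 0.51 ± 0.13 (limma adjusted p = 0.0369), and at 4.26 to 5.97 it was below every array median.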
